A study of Mus musculus with 6 samples.

Results

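The genes described are 10 germ cell and meiosis genes that embryonic stem cells hold down: Dazl, Ddx4, Mael, Sycp1, Sycp3, Tex15, Stk31, Tex101, Hormad1 and Taf7l. They were chosen by gene symbol, and each symbol was found once among the 23412 genes of the table. They were measured by RNA-seq in mouse embryonic stem cells (mESCs) of strain 129Sv. R1 mESCs, the wild type parental line, were compared with HN mESCs (Htt-/-), in which the promoter and exon 1 of the huntingtin gene Htt are deleted on both alleles. Both lines were undifferentiated, grown without feeder cells in medium with LIF and inhibitors of FGFR, MEK and GSK3, and each gave 3 libraries from 3 collection dates, on which both lines were collected. Each genotype is 1 cell line, so the deletion and other differences between the lines cannot be told apart.

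Germ cells switch on a large set of genes for meiosis and for the silencing of transposons, and cells outside the germline keep these genes off. In mESCs much of this repression lies at CpG-rich promoters. It is placed there by DNA methylation and by the variant Polycomb complex PRC1.6, whose DNA-binding subunits are the pair MGA and MAX, which bind an E-box (CACGTG), and E2F6 with its partner DP1, which bind an E2F site (GCGGGAA). Loss of PRC1.6 subunits or of DNA methylation is known to raise several of these genes in mESCs. No germ cell sample belongs to the data used here, so the levels below cannot be set against the level in germ cells.

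The promoters are shown first because they carry the sequences that this repression is known to use. RefSeq gives a promoter window from 250 bases before to 50 bases after the start for 9 of the 10 genes (build GRCm38.p6), and Tex15 has no entry there. The E-box was present in the windows of 7 of these 9 genes, compared with 7.24% of all 27025 promoters and 10.4% of the promoters of 10469 genes tested for expression. The E2F letters GCGGGAA, or TTCCCGC on the other strand, were present in 3 of the 9, compared with 4.66% of all promoters and 8.64% of those of tested genes. The E-box reads the same on both strands and shares no base with the E2F sites found. Sycp3, Hormad1 and Ddx4 held both, which 0.463% of all promoters and 0.841% of those of tested genes did. Dazl and Tex101 held neither, which says only that these letters are not in this window. Since the genes were picked as targets of this repression, these shares describe them and test nothing.

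Sycp3 and Hormad1 each had an E2F site upstream of a pair of E-boxes, and Dazl is shown beside them as a promoter with neither. The 250 bases before the start are given 5′ to 3′ along the gene, with E-boxes and E2F sites in capitals: Sycp3 at chr10:88459337-88459586 (plus strand), Hormad1 at chr3:95559427-95559676 (plus strand) and Dazl at chr17:50293621-50293870 (minus strand).
Sycp3: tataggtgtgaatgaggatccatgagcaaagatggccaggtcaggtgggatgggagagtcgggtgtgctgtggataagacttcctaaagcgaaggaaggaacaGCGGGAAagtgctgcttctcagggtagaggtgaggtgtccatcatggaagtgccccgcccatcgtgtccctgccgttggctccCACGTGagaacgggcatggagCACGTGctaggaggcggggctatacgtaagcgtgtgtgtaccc
Hormad1: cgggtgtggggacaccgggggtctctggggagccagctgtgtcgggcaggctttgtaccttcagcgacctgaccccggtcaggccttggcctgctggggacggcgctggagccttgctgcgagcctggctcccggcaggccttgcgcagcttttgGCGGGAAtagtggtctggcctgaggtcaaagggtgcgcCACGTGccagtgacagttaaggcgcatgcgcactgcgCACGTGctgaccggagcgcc
Dazl: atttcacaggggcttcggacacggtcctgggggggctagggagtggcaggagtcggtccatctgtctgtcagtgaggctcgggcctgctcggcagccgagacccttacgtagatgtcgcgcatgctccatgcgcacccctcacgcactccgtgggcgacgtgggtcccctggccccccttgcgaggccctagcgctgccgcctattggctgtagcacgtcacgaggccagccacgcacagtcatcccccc

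Counted from the RefSeq start, the E2F site of Sycp3 began at -147 and its E-boxes at -64 and -43. In Hormad1 the E2F site began at -95 and the E-boxes at -57 and -20. For some genes the RefSeq start differs from the gene positions given below, which are from GENCODE. The E-box and E2F site of Ddx4 lie inside its GENCODE span, which ends at 112652475. The window of Tex101 (24672001 to 24672300) also lies inside the GENCODE span of that gene. The other 5 genes with an E-box had 1 each, beginning at -29 in Ddx4, -49 in Taf7l, -55 in Stk31, -94 in Sycp1 and -223 in Mael. These E-boxes are shown in capitals with 10 bases on either side, so that the flanks can be compared.
Ddx4 (chr13:112652324-112652349, minus strand): cgtccgcccgCACGTGcagccgttta
Taf7l (chrX:134476524-134476549, minus strand): cctcttatacCACGTGacagaactcg
Stk31 (chr6:49395474-49395499, plus strand): gccggccaccCACGTGaccagggctg
Sycp1 (chr3:102936179-102936204, minus strand): gagaacccggCACGTGggaagggaaa
Mael (chr1:166238952-166238977, minus strand): ccaggcctacCACGTGacaatccccg

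The 9 windows held between 15 (Sycp3) and 38 (Ddx4) CpG dinucleotides, with a median of 24. The median was 7 in all promoters and 21 in the promoters of tested genes, so that the germline genes lay on the CpG-rich side of all promoters but near the tested genes. Of the other germline genes listed below, 53 had a window, with a median of 17 CpGs and an E-box in 10 (18.9%). Late spermatid genes, such as those of the protamines that pack sperm DNA, had a median of 3 CpGs in 9 windows, and 0 of the 9 held an E-box.

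**Figure D1:**
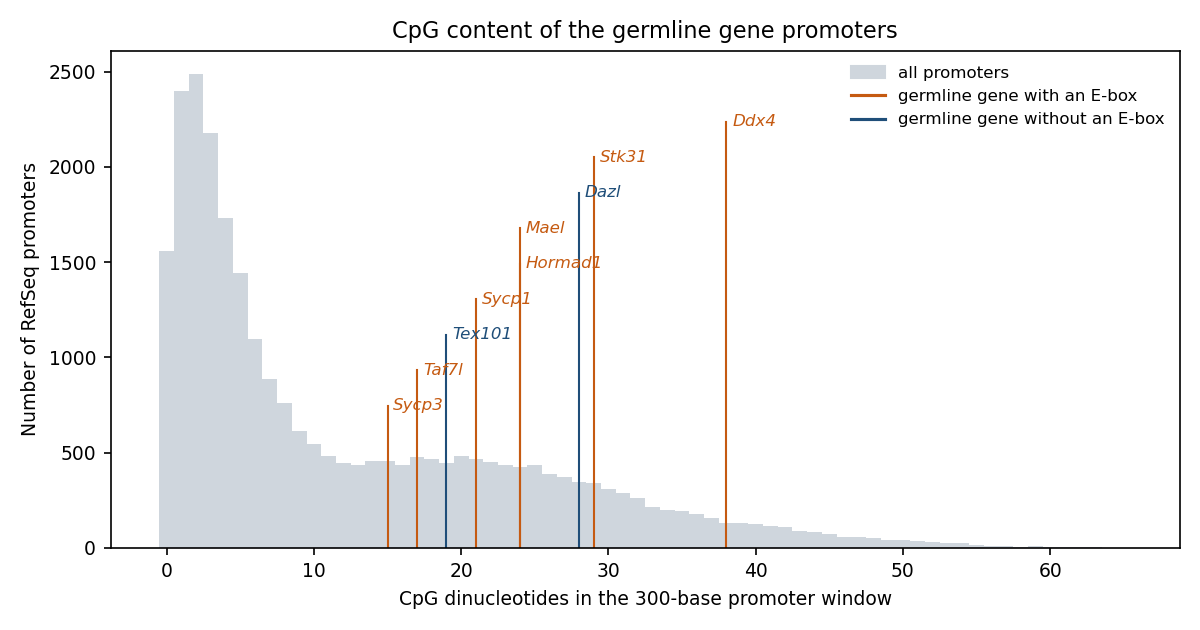
The grey bars give the number of RefSeq promoters (y axis) by the number of CpG dinucleotides in their 300-base window (x axis), and the lines mark the 9 germline genes with a window. The lines run from 15 (Sycp3) to 38 CpGs (Ddx4), to the right of the median of 7 over all promoters, and the 7 orange lines are genes with an E-box. The height of a line has no meaning.

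Values below are normalized counts, that is, reads on the exons of a gene divided by the size factor of the library. The libraries held between 1640391 and 3866717 reads on genes, and the libraries of the third date detected more genes (20542 to 20675 with at least 1 read) than those of the other dates (18133 to 19083). Htt was 5.76-fold lower in HN mESCs (adjusted p = 0.0141 by limma, n = 3 per line) with reads left in all 3 libraries. All 10 mESC markers were present, with a summed normalized count from 15328 to 21757 in R1 and from 17056 to 23563 in HN mESCs, and of these Utf1 was called, lower in HN mESCs, only with the collection date as a block (log2 fold change -1.06). A gene is described as called where its Benjamini-Hochberg (BH) adjusted p over all 14276 tested genes was under 0.05 by limma and its log2 fold change, HN minus R1, was above 1 or below -1. By adjusted p alone with the block, which 9.48% of all tested genes passed, 5 of the 10 mESC markers were higher and 2 lower in HN mESCs. For 5 of the 10 markers, and for 10.8% of all tested genes, the values of the lines did not overlap. As these are bulk samples, a few cells with much of an mRNA and many cells with little of it cannot be told apart.

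All 10 germline genes had reads in every library, and 9 of them reached the mean normalized count of 5 needed for the test. Of these 9, Tex15 was higher in HN mESCs and called, and 0 were called lower. Over all tested genes 0.119% were called higher and 0.126% lower. With the collection date as a block, Tex15 was called higher and Sycp3 lower, where 0.911% of all genes were called higher and 1.04% lower. For 2 of the 9, Tex15 and Sycp3, and for 10.8% of all tested genes, the HN values lay wholly above or wholly below those of R1. The median log2 fold change was -0.16 over the 9 genes and -0.01 over all tested genes. Of the 9, 3 had a log2 fold change above 0 and 6 below.

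**Figure D2:**
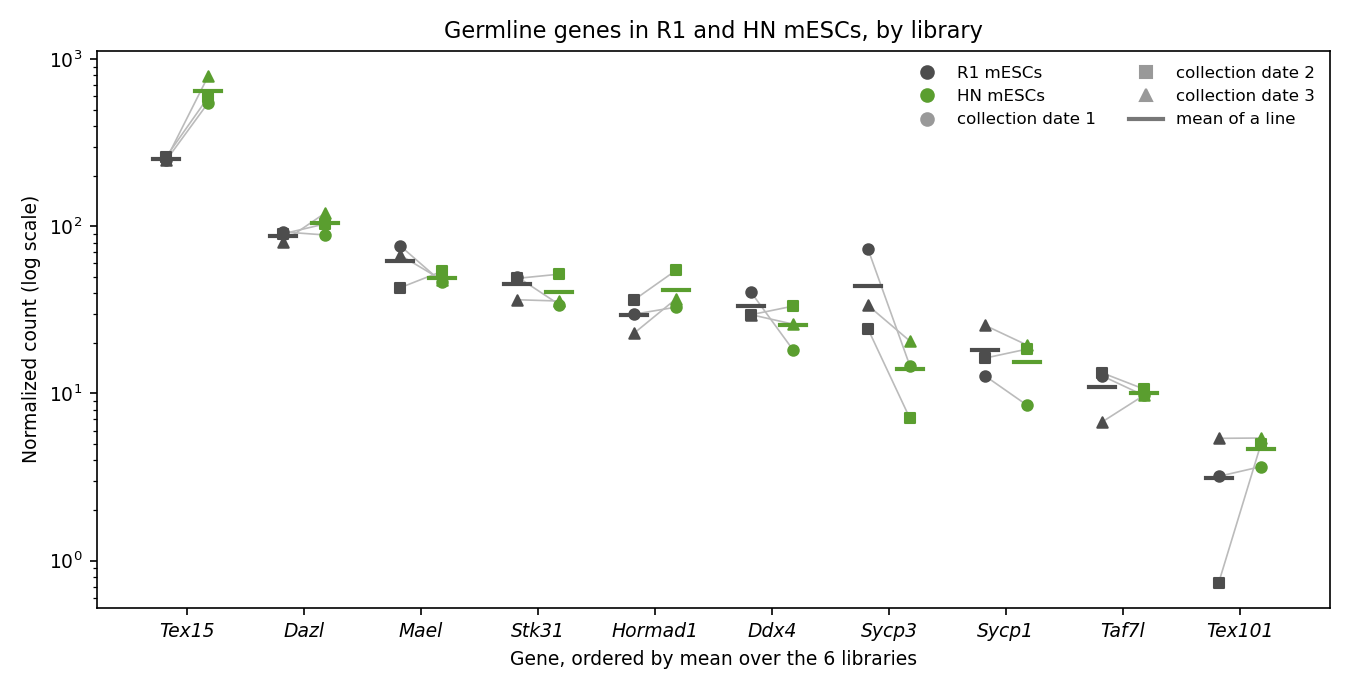
Normalized counts on a log scale (y axis) of the 10 germline genes (x axis) in each R1 (grey) and HN (green) library. Symbols give the collection date, thin lines join libraries of the same date and thick bars are the means of 3 libraries. All 3 HN values of Tex15 lie above all 3 R1 values, those of Sycp3 lie below, and the lines overlap for the other 8 genes.

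Tex15 encodes a large protein of male germ cells that is needed for repair of meiotic DNA breaks and for the silencing of transposons guided by piRNAs, the small RNAs of the germline. It is found on chromosome 8 from 33516738 to 33585582 (plus strand). R1 replicates 1, 2 and 3 had normalized counts of 248, 260 and 251, from 233, 352 and 186 reads. In HN replicates 1, 2 and 3 they were 549, 593 and 793, from 451, 836 and 732 reads. The R1 libraries lay close together, every HN library was well above them, and the HN library of the third date was the highest.

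Tex15 averaged 253 ± 6.50 in R1 mESCs and 645 ± 130 in HN mESCs (SD, n = 3 each), a 2.51-fold rise. The log2 fold change was 1.33 (standard error 0.19, 95% interval 0.90 to 1.75, BH adjusted p = 0.0135 by limma). Within the dates the differences were 1.14, 1.18 and 1.66 on the log2 scale, higher in 3 of 3 pairs. The call was lost without the third date (log2 fold change 1.16, adjusted p = 0.0557), without R1 replicate 1 (adjusted p = 0.110), without HN replicate 1 (adjusted p = 0.0702) and without the trend of variance on expression (adjusted p = 0.283), while the log2 fold change stayed between 1.16 and 1.43 in all 23 alternatives. Tex15 is also among the genes that the study itself picked out from these libraries, so its call here is not independent evidence.

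None of the exon bases of Tex15 is shared with another gene, and 0% of its 50-base stretches occur in transcripts of another gene. Its 7 tested neighbours within 500 kb, among them Wrn, Gsr and Rbpms, had log2 fold changes from -0.41 to 0.32, and 0 of them were called with or without the block. These neighbours, like those of Sycp3 below, were looked up after the values of the genes were known. Among the tested genes of this stretch, Tex15 alone was called.

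Sycp3 encodes a protein of the axial and lateral elements of the synaptonemal complex, the structure that joins homologous chromosomes in meiosis. It is found on chromosome 10 from 88459569 to 88473236 (plus strand). R1 replicates 1, 2 and 3 had normalized counts of 73.5, 24.4 and 33.7, from 69, 33 and 25 reads. HN replicates 1, 2 and 3 had 14.6, 7.09 and 20.6, from 12, 10 and 19 reads. No HN value reached the R1 range, but the highest HN value was near the lowest R1 value, and R1 replicate 1 stood far above the other R1 libraries.

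Sycp3 averaged 43.9 ± 26.1 in R1 mESCs and 14.1 ± 6.76 in HN mESCs (SD, n = 3 each). The log2 fold change was -1.53 (standard error 0.48, 95% interval -2.58 to -0.48), which did not pass the test over all genes (BH adjusted p = 0.511 by limma). With the collection date as a block the same difference had a standard error of 0.30 and passed (adjusted p = 5.95e-04). In limma this standard error draws on the variance of all tested genes, so it does not measure the spread of the Sycp3 pairs alone. Sycp3 was lower in HN mESCs in 3 of 3 pairs, by -2.25, -1.65 and -0.69 on the log2 scale. Without R1 replicate 1 the log2 fold change was -1.09, and with the block it was -1.17 without both libraries of the first date (adjusted p = 0.0245).

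Of the exon bases of Sycp3, 52.2% are shared with Chpt1, a lipid synthesis gene on the opposite strand, and 43.0% of its 50-base stretches occur in Chpt1 transcripts. Without strand, reads from these stretches cannot be assigned to either gene, so the value of Sycp3 is uncertain. Chpt1 itself had normalized counts of 66.0, 43.6 and 55.3 in R1 and 86.4, 36.9 and 49.8 in HN replicates 1, 2 and 3. Its means were 54.97 ± 11.2 and 57.7 ± 25.7 (SD, n = 3 each), and the lines overlapped. Of the 9 tested neighbours of Sycp3 within 500 kb, 0 were called without the block. With it, Ano4 (5, 11 and 17 reads in R1 and 1, 0 and 4 in HN mESCs) and Spic (21, 9 and 22 reads in R1 and 3, 3 and 17 in HN mESCs) were called lower, with adjusted p = 0.0142 and 0.0297 by limma. With the block, 1.04% of all tested genes were called lower. Ano4 had a mean normalized count of 6.99, near the 5 needed for the test. The lines overlapped for Spic, which was also called higher on the third date (log2 difference 1.77, adjusted p = 0.0406 by limma).

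Sycp1 and Hormad1 belong to the same meiotic chromosome structures as Sycp3 and were not called. Sycp1 encodes the transverse filaments that bridge the lateral elements, and lies on chromosome 3 from 102818499 to 102936100 (minus strand). It had normalized counts of 12.8, 16.3 and 25.6 in R1 and 8.52, 18.4 and 19.5 in HN replicates 1, 2 and 3. Both lines were lowest on the first date and highest on the third, the lines overlapped, and the log2 fold change was -0.25 (95% interval -1.26 to 0.76). Of its 50-base stretches, 5.47% occur in other genes.

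Hormad1 encodes a HORMA-domain protein of the chromosome axis that helps form meiotic DNA breaks, and lies on chromosome 3 from 95559677 to 95587671 (plus strand). R1 replicates 1, 2 and 3 had normalized counts of 29.8, 36.2 and 22.9, and HN replicates 32.9, 54.6 and 36.8. HN was above R1 in 3 of 3 pairs, but the lines overlapped. The log2 fold change of 0.46 (95% interval -0.23 to 1.15) was not called without the block or with it (adjusted p = 0.258 by limma with the block). Of its 50-base stretches 22.9% occur in the near-copies Gm15529 and Gm7167, which have no line of their own in the table, so part of its reads may be placed uncertainly.

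The genes for RNA regulation in germ cells, Dazl, Ddx4, Mael and Stk31, were not called either. Dazl, an RNA-binding protein that controls translation in germ cells, lies on chromosome 17 from 50279395 to 50293636 (minus strand). R1 replicates 1, 2 and 3 had 92.6, 90.3 and 80.9, and HN replicates had 88.8, 103 and 120. The HN values reached higher but overlapped those of R1, and the log2 fold change was 0.23 (95% interval -0.24 to 0.71). As the interval reaches no further than 0.71, a change of the size of that of Tex15 lay outside it.

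Ddx4, the RNA helicase also called Vasa and a classical marker of germ cells, lies on chromosome 13 from 112598333 to 112652475 (minus strand). Its values were 40.5, 29.6 and 29.7 in R1 and 18.3, 33.3 and 26.0 in HN replicates 1, 2 and 3. HN replicate 1 was the lowest and R1 replicate 1 the highest, and the log2 fold change was -0.37 (95% interval -1.10 to 0.35).

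Mael, a protein of the piRNA pathway found in germ cell granules, lies on chromosome 1 from 166201201 to 166238747 (minus strand). Its values were 76.6, 42.9 and 67.4 in R1 and 46.2, 53.9 and 47.7 in HN replicates 1, 2 and 3. The log2 fold change was -0.30 (95% interval -0.90 to 0.31), and R1 replicate 2 lay below all HN libraries. Stk31, a Tudor-domain protein of male germ cells on chromosome 6 from 49395604 to 49469501 (plus strand), had 50.03, 48.8 and 36.4 in R1 and 34.1, 51.7 and 35.7 in HN replicates. Its log2 fold change was -0.16 (95% interval -0.78 to 0.46), and both lines overlapped over nearly their whole range.

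Taf7l and Tex101 were at the low end. Taf7l, an X-linked relative of the general transcription factor subunit TAF7 that acts in male germ cells, lies from 134460118 to 134476490 (minus strand). It had 12.8, 13.3 and 6.74 in R1 and 9.73, 10.6 and 9.75 in HN replicates 1, 2 and 3, from between 5 and 18 reads. Its log2 fold change of -0.06 had a 95% interval from -1.19 to 1.06 without the block and from -0.90 to 0.77 with it.

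Tex101, a cell-surface glycoprotein of germ cells needed for sperm fertility, lies on chromosome 7 from 24668007 to 24676675 (minus strand). It had 3, 1 and 4 reads in R1 and 3, 7 and 5 reads in HN replicates 1, 2 and 3, and was below the mean count needed for the test. The ratio of HN to R1, from 15 and 8 reads in all and scaled by the size factors, was 1.80 with a 95% interval of 0.717 to 4.91 (exact, counting error only). No difference was therefore detectable for Tex101.

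**Figure D3:**
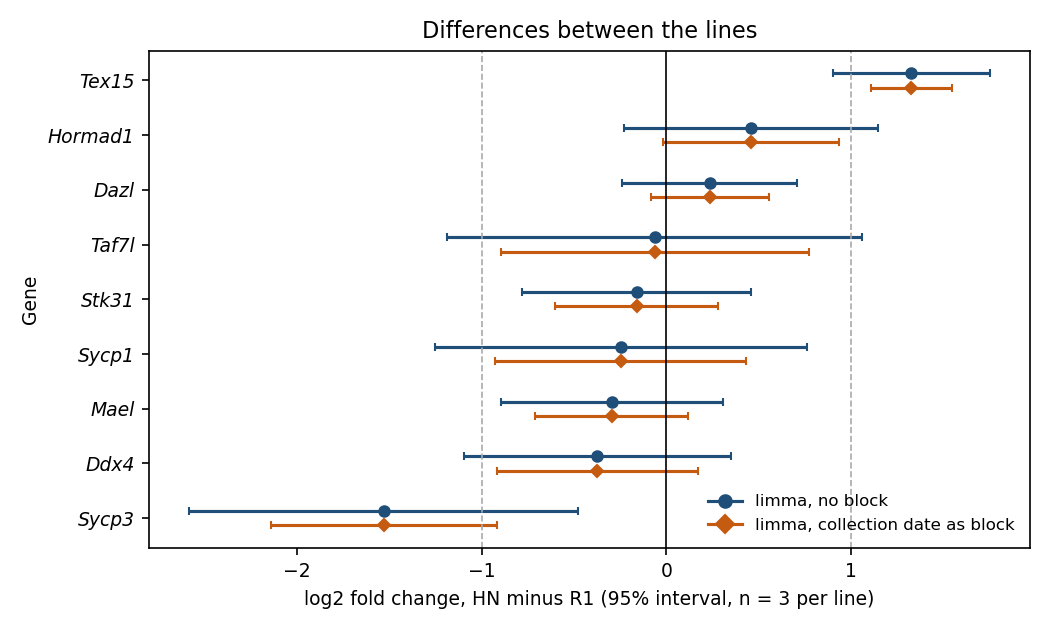
Log2 fold changes, HN minus R1, with 95% intervals (x axis) for the 9 tested germline genes (y axis), by limma without a block (blue circles) and with the collection date as a block (orange diamonds), n = 3 per line. Tex15 stands at 1.33 and Sycp3 at -1.53. The intervals of the other 7 genes include 0 in both fits, and dashed lines mark 1 and -1.

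Compared per length, as normalized counts per kilobase of merged exons averaged over the 6 libraries, Tex15 was highest with 46.7 (range 25.8 to 82.4), followed by Mael with 32.2, Dazl with 25.1, Sycp3 with 22.9 and Hormad1 with 20.6. Stk31 (13.2) and Ddx4 (9.80) came next, and Sycp1 (4.74), Taf7l (4.67) and Tex101 (2.35) were lowest. Neighbours in this order overlapped in their ranges over the libraries in every case. The order differed between the lines: in R1 mESCs Mael (36.0) and Sycp3 (34.7) stood above Tex15 (26.3), while in HN mESCs Tex15 (67.0) was above Mael (28.4) and Sycp3 was at 11.1. The place of Sycp3 in R1 rests on replicate 1, since its levels per kilobase were 58.1, 19.3 and 26.7 in R1 replicates 1, 2 and 3 against 25.8, 27.1 and 26.1 for Tex15. Without replicate 1 the R1 means were 31.8 for Mael, 23.0 for Sycp3 and 26.6 for Tex15, which puts Sycp3 below Tex15. The length of Sycp3 includes the exon bases shared with Chpt1. Among the reads of the 10 genes Tex15 took from 38.8% to 46.3% in R1 and from 63.7% to 71.1% in HN libraries. Summed without Tex15, the other 9 genes had normalized counts from 303 to 392 in R1 and from 257 to 338 in HN libraries, which overlapped.

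The levels of the 9 tested genes were also compared with each other over the 6 libraries. Among their 36 pairs, Pearson's r on the log2 scale ran from -0.75 to 0.78 with a median of 0.06, and 23 were positive. All pairs share the same 6 libraries and low counts. The genes outside the group whose levels most resembled the mean of the 9 were Pkn2 (r = 0.95), Kif18a (0.94), Cant1 (0.94), Gprasp2 (0.94) and 1110012L19Rik (0.93), over 6 libraries. They were picked as the closest of 7640 candidates, 9 of which exceeded 0.9, so these r values test nothing. The 9 germline genes themselves shared little pattern, as their median r shows.

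The third date stood apart in many genes, and the germline genes were examined for it. Compared with the other dates, with line as a term, 8.52% of all tested genes were called higher on the third date and 1.23% lower. Of the 9 germline genes 0 were called, with differences from -0.46 (Taf7l) to 0.69 (Sycp1) on the log2 scale. Among 58 other tested germline genes 10 were called higher on the third date, including the synaptonemal complex gene Sycp2 and the chromatoid body gene Tdrd6, and 0 lower. Primitive endoderm markers Gata4, Gata6 and Sox17 were also called higher there. The 4 tested markers of two-cell-like cells, described below, were called lower (Zscan4a, Zscan4c, Zscan4d and Zscan4f). The summed testis somatic cell markers, 9 genes, ranged from 29.6 to 147 in R1 and from 29.8 to 109 in HN libraries with the highest value of each line on the third date. Gata4 is also among these 9 genes. The part of these markers in the germline values was not tested.

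The other germline genes were taken from lists of meiotic chromosome genes, piRNA pathway genes and germ cell regulators, 69 genes without the 10, of which 68 were in the table and 58 tested. Without the block 0 of the 58 were called by limma, and 6 had an unadjusted p under 0.05, as did 843 of all 14276 tested genes. With the block Prdm1 was called higher and Stra8 and Smc1b lower, beside 0.911% of all tested genes called higher and 1.04% lower. By adjusted p alone with the block, which 9.48% of all tested genes passed, 5 meiotic chromosome genes were lower and 0 higher. Of the piRNA pathway genes 2 were higher and 0 lower, and of the germ cell regulators 3 were higher and 2 lower. The median log2 fold change of the 58 was -0.26, with 19 genes above 0 and 39 below, beside -0.01 over all tested genes. The lines did not overlap for 12 of the 58, beside 10.8% of all tested genes. By list the medians were -0.28 for 25 meiotic chromosome genes, -0.33 for 16 piRNA pathway genes and -0.04 for 17 germ cell regulators.

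Stra8, the retinoic acid-induced gene that opens meiosis, had 14, 11 and 18 reads in R1 and 2, 3 and 3 reads in HN replicates 1, 2 and 3. The ratio of HN to R1 from 8 and 43 reads was 0.179 (95% interval 0.0726 to 0.385, exact, counting error only), and the adjusted p was 0.554 without the block and 0.00491 with it. Smc1b, a cohesin subunit of meiosis, had normalized counts of 39.4, 17.8 and 53.9 in R1 and 8.52, 5.67 and 29.2 in HN replicates, with a log2 fold change of -1.48 (adjusted p = 0.732 without and 0.00126 with the block by limma). HN was below R1 on each date, although the lines overlapped. Prdm1, the regulator that starts the primordial germ cell fate, had 6.39, 4.44 and 22.9 in R1 and 36.5, 12.0 and 22.7 in HN replicates (log2 fold change 1.20, adjusted p = 0.959 without and 0.0447 with the block). On the third date the lines had nearly the same value, and on the other dates HN was higher.

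The machinery of repression was examined in the same libraries. All 14 listed PRC1.6 subunits were tested, 0 were called with or without the block, and their log2 fold changes lay between -0.34 and 0.34. E2f6 had 55.4, 84.3 and 51.2 in R1 and 53.5, 85.8 and 63.9 in HN replicates, and Pcgf6, the subunit that defines the complex, had 207, 260 and 175 in R1 and 158, 247 and 164 in HN replicates. Both overlapped between the lines. By adjusted p alone with the block, which 9.48% of all tested genes passed, 1 of the 14 passed, Mga (log2 fold change 0.34, adjusted p = 0.00920), higher in HN mESCs in 3 of 3 pairs.

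Of the 11 genes of DNA methylation and H3K9 methylation 0 were called with or without the block, with log2 fold changes from -0.96 to 0.62. Dnmt3a, a de novo DNA methyltransferase, had normalized counts of 85.2, 87.3 and 78.2 in R1 and 30.4, 49.6 and 50.9 in HN replicates 1, 2 and 3. The lines did not overlap, and the log2 fold change of -0.96 missed the fold threshold but had an adjusted p of 7.54e-04 with the block (0.374 without it). Its cofactor Dnmt3l (-0.71), the maintenance factor Uhrf1 (0.57) and the methylcytosine oxidase Tet2 (0.62) also passed by adjusted p alone with the block. Thus 2 of the 11 passed as higher and 2 as lower in HN mESCs, beside 9.48% of all tested genes in either direction. The maintenance methyltransferase Dnmt1 had a log2 fold change of 0.15 (adjusted p = 0.333 with the block). DNA methylation itself was not measured in these libraries, and the part of these genes in the germline values was not tested.

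**Figure D4:**
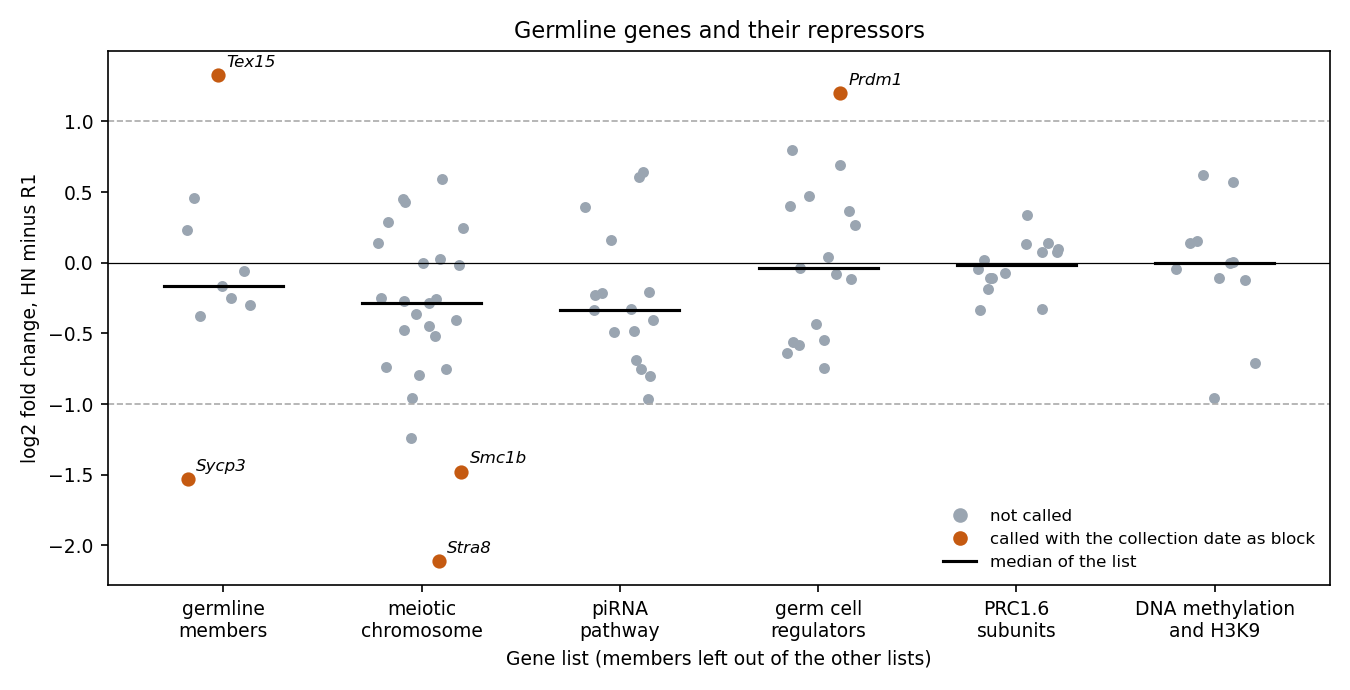
Log2 fold change, HN minus R1 (y axis), of each tested gene in 6 gene lists (x axis), where black bars are list medians and orange points are genes called with the collection date as a block. Tex15 (1.33) and Prdm1 (1.20) lie above 1, Stra8, Sycp3 (-1.53) and Smc1b (-1.48) lie below -1, and the PRC1.6 subunits lie within -0.34 and 0.34.

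Markers of other cell types were followed beside these values. Late spermatid genes were near 0: none of the 10 reached the test, no gene exceeded 10 reads in a library and Spem1 had 0 reads in all. Of the 8 fibroblast markers 7 were tested and 0 called without the block, but their summed normalized count, mostly from Fn1, ran from 1375 to 1785 in R1 and from 2033 to 2672 in HN libraries without overlap, while Thy1 was called lower in HN mESCs with the block. The 9 markers of two-cell-like cells, a rare state of mESC cultures, summed to between 33.7 and 148 in R1 and between 33.6 and 202 in HN libraries, with the lowest value of each line on the third date. The 7 primitive endoderm markers ranged from 41.4 to 175 in R1 and from 41.8 to 151 in HN libraries. The 7 tested fibroblast markers had a median log2 fold change of 0.01, with 4 above 0 and 3 below. Their sum, mostly Fn1, was higher in HN mESCs as Tex15 was, and its part in that result was not tested.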

How the data were processed

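Total RNA of 3 R1 and 3 HN libraries was made into unstranded TruSeq libraries and sequenced as paired-end reads. Per the labels and the methods, the authors used STAR for alignment to mm10/GRCm38, Picard to take out PCR duplicates, HTSeq to count reads over exons and DESeq2 to normalize. The deposited values are thus a normalized signal per gene, reads divided by a size factor. Tool versions, annotation and the HTSeq settings are not given in the sources used here. Values were whole multiples of 1 read in 100% of cases (tolerance 0.01), so reads were recovered for the depth and for the count-based alternatives. A date stood in place of the gene name in 27 lines, which were not named. No molecular identifiers were used, so reads are not independent molecules and intervals on reads cover counting error only.

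Values were transformed as log2(normalized count + 1), so that fold changes of low genes are understated, and HN was tested against R1 with limma 3.58.1 (variance trend) in R 4.3.3 over 14276 genes with a mean of at least 5, with no block, as the study names none. Replicates of the same number share a collection date in the labels, and their deviations from the line means correlated at 0.25, 0.69 and 0.77. R1 replicate 1 correlated more with HN replicate 2, of another date (0.34), than with HN replicate 1. All other pairs of different dates had negative correlations. Deviations from a line mean cancel out within each line, so negative values between dates follow in part from positive same-date values. They are no separate support for the block. Because the replicates share dates, the date as a block was used as an alternative, and its value is given where it changed a call. Other alternatives were edgeR 4.0.16 and DESeq2 1.42.0 on recovered reads, pseudocounts of 0.1 and 10, other filters, median centring, quantile normalization, no variance trend and each library or the third date left out. Fits with the block without each date, and the R1 level per kilobase without replicate 1, were added after seeing the data. The fits were tested on simulated data with no date effect, in which only genes with a mean of at least 50 were changed. That test does not cover calls of lower genes or what the block does with date differences.

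The 10 genes, the gene lists and the tests were chosen with earlier results of these data known. Named genes are the 10, listed genes called with or without the block, Htt, and the 5 genes with a mean of at least 50 most correlated with the mean of the 9 tested genes. Others named were chosen after their values were seen. Positions are from GENCODE M21 (GRCm38), and promoters from RefSeq.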

Additional observations from a re-analysis of the deposited data

How the results depend on the processing

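Tex15 was called in 19 of 23 alternatives, with log2 fold changes from 1.16 to 1.43 and adjusted p from 1.56e-29 to 0.283. The number of germline genes called higher fell from 1 to 0 without the trend of variance and without the third date, and was 0 to 1 when single libraries were left out. The number called lower rose from 0 to 1, Sycp3, in the fits with the replicate block: limma (5.95e-04), edgeR (5.83e-05), DESeq2 (0.0195), no filter (0.00581), and without the libraries of date 1 (0.0245), date 2 (0.00317) or date 3 (8.38e-07), the adjusted p in brackets. Sycp3 was called in 7 of 22 alternatives in all, and without the block its adjusted p ran from 0.212 upward. The block fits without a date, which gave 1.56e-29 for Tex15, hold fewer libraries and take their variance mostly from all genes together. Their adjusted p is therefore no stronger evidence than that from all 6 libraries. The other germline lists went from 0 to 3 called genes with the replicate block (Smc1b, Stra8 and Prdm1). The cause of these changes was not tested.

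The remaining 7 tested genes were called in 0 alternatives. Small log2 fold changes turned their sign: Sycp1 to 0.015 without R1 replicate 3 and 0.11 without HN replicate 1 (from -0.46 to 0.11 over the libraries left out), Stk31 to 0.028 with the block and without date 1, and Taf7l to 0.053 with quantile normalization, 0.067 and 0.095 without R1 replicates 1 and 2 (from -0.35 to 0.095 over the libraries left out), and 0.087 and 0.057 with the block and without date 1 or date 2. The block changed no other call of the 10 genes or the repressor lists. The 0 calls on the third date held in all 13 alternatives. Where 1 library of a line was left out, 2 remained. With 5 to 26 reads a library, Sycp1 and Taf7l are limited by depth, as is Tex101.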
